A study of Mus musculus with 8 samples.

Results

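The genes described are 8 genes of the complement system that fibroblasts are known to make, C3, C4b, Cfb, Cfd, C1ra, Serping1, Cd55 and Masp1, taken from the 18193 genes on a mouse expression array. They were listed by name, and all probe sets that the array annotation gives to them were read. A probe set is a group of short probes for 1 transcript, and its value is the log2 signal of the Robust Multichip Average (RMA), on which a step of 1 is a doubling. Of the 8 genes, 5 had probe sets of their own, 11 in all of the 45037 tested: 5 for Masp1, 3 for Cd55 and 1 each for Serping1, C1ra and Cfb. C4b was read only through a probe set shared with its near copy C4a. C3 and Cfd had no probe set under their symbols in the annotation used here, so no value is given for them.

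Expression was measured in mouse adult fibroblasts (MAFs) grown from the peritoneal fascia of Rb loxP/loxP mice, on 8 arrays. All 4 populations carried LXSN-p53DD, a retroviral dominant negative form of p53, so each comparison was made in cells with blocked p53. GFP Naïve cells had received an adenovirus with GFP alone, kept Rb1 and were not treated. Cre Naïve cells had received GFP and Cre recombinase, which removes a floxed exon of Rb1. The 2 recurred populations, GFP Recurred and Cre Recurred, were the corresponding cells after cisplatin (CDDP) for 24 h and regrowth in fresh medium. Each population was a pool of selected cells, infected at high but incomplete efficiency, and was measured on 2 arrays labelled as biological replicates, without a statement of what the replicate numbers share. The Rb1 probe set 1417850_at read 7.98, 8.07, 8.21 and 8.78 on the 4 GFP arrays and 6.21, 5.72, 4.98 and 5.45 on the 4 Cre arrays, so every Cre array was below every GFP array. Its place relative to the removed exon was not determined here. The other Rb1 probe set, 1444400_at, was dim on all 8 arrays, between 3.52 and 4.47. Array medians were alike, at 5.38 to 5.41 on the log2 scale.

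Complement is a cascade of blood and tissue proteins that marks and lyses cells and microbes. In the classical pathway the protease C1r cleaves C1s, which then cleaves C4 and C2. In the lectin pathway MASP proteases act on C4 and C2, and in the alternative pathway factor B (Cfb) and factor D (Cfd) amplify the cleavage of C3. Serping1 encodes the C1 inhibitor, which blocks C1r, C1s and the MASP proteases, and Cd55 encodes decay-accelerating factor, a membrane protein that speeds the decay of the C3 convertases on the cell surface. The liver makes most of the circulating proteins, and fibroblasts make several of them locally, often more of them under inflammatory cytokines.

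The largest differences among the measured genes were in the 2 inhibitors. Cd55 and Serping1 were 10.0-fold or more lower in Cre Recurred than in GFP Recurred cells, and Masp1 was lower by up to 1.80-fold. C1ra was below its other arrays on 1 Cre Recurred array only. Cfb read high on 1 array of each untreated genotype and low on the other 6. These values come from cell pools, in which fewer cells that make a transcript and less transcript per cell cannot be told apart.

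**Figure D1:**
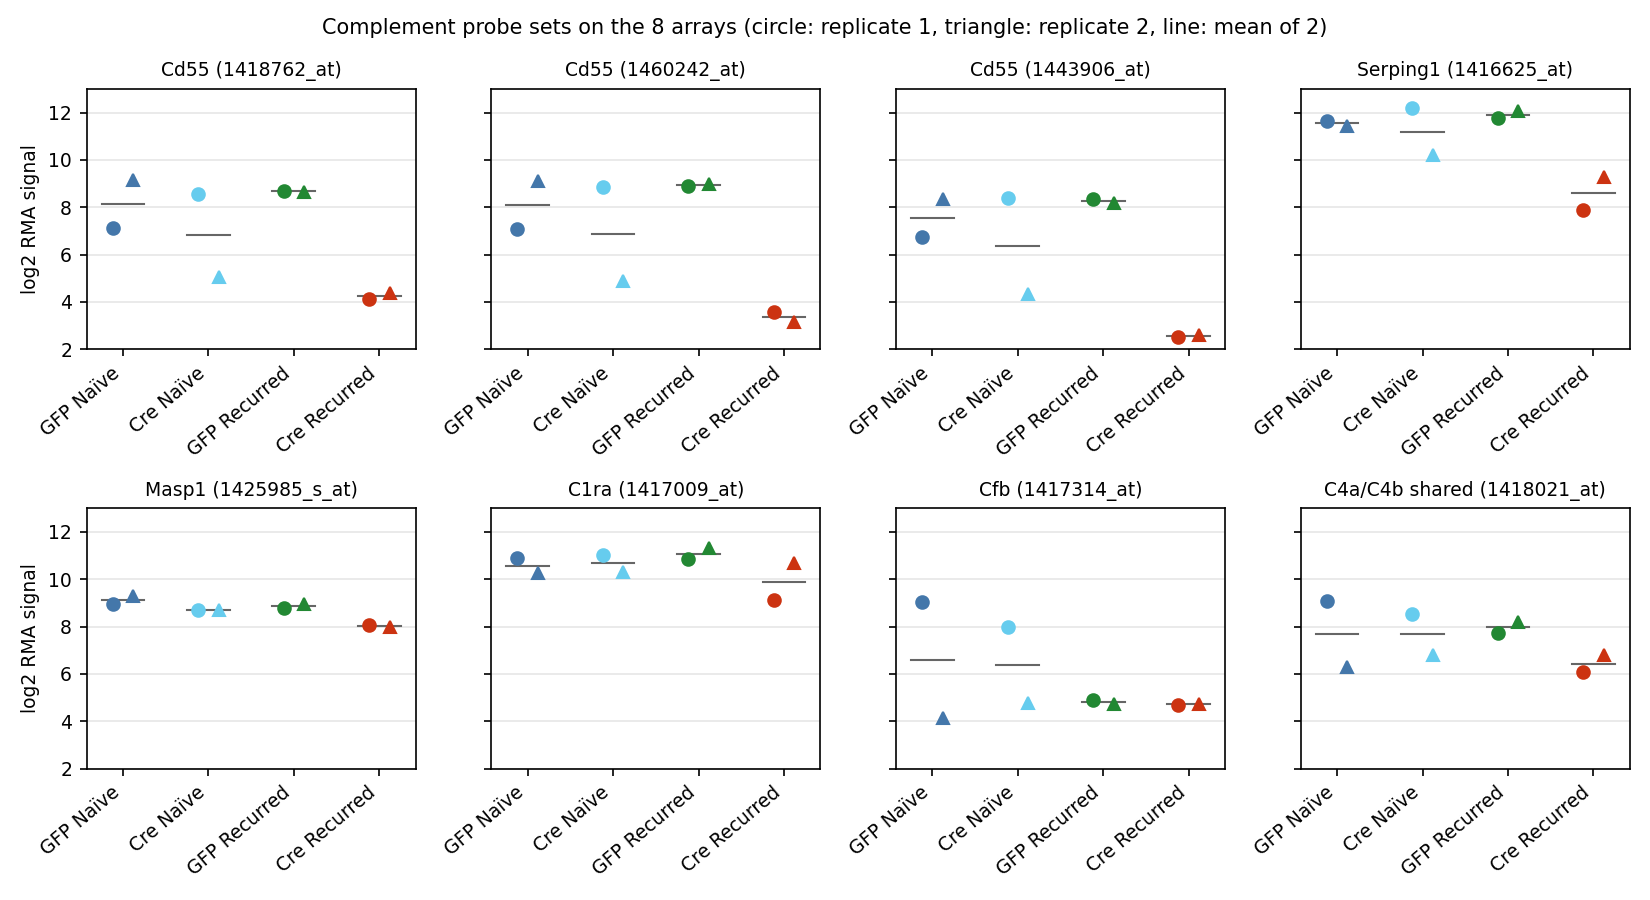
Log2 RMA signal (vertical axis, 2 to 13) of 8 probe sets in the 4 populations, with replicate 1 as a circle, replicate 2 as a triangle and the mean of the 2 arrays as a line. Cd55 and Serping1 were lowest on the Cre Recurred arrays, whereas Cfb was high only on the replicate 1 arrays of both naïve populations.

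Cd55 lies on chromosome 1 beside its copy Cd55b. The promoters of both run here from 250 bases before to 50 bases after the annotated start in RefSeq (GRCm38.p6). They are shown because the genes are copies and the Cd55b probe set was dim on all arrays. Probe sets read transcripts, so these windows do not bear on whether the probe sets tell the copies apart. CpG dinucleotides, the sites of DNA methylation, are in capitals, and both genes are read on the minus strand.
Cd55, chr1:130462695-130462994: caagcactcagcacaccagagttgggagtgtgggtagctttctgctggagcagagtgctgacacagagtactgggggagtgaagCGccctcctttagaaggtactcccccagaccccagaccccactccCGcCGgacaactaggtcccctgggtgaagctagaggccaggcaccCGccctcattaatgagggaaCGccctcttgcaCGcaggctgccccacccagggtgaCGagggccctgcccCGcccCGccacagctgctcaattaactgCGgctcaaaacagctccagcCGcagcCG
Cd55b, chr1:130422994-130423293: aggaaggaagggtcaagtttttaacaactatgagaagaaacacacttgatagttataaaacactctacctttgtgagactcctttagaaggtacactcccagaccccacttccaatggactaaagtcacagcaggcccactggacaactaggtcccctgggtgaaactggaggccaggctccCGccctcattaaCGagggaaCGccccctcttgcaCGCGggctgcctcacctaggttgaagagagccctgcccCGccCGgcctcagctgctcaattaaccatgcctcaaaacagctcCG
The Cd55 window held 12 CpG and that of Cd55b 8. Of the 32851 promoters in the table, 39.6% held at least 12 CpG and 48.6% at least 8. Over 201 aligned bases the windows were identical at 176 (87.6%), and 4 CpG stood at the same aligned place. Both windows held 1 match to the NF-kB-like letters GGGNNTTNCC on either strand, starting 61 bases before the start in Cd55 and 53 bases before it in Cd55b, as did 4.8% of all promoters. The TATA letters TATAAA were matched once in Cd55b and not in Cd55 (13.6% of all promoters). These matches describe the letters only, and methylation was not measured on these arrays.

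The 3 probe sets of Cd55 gave 1 pattern. On 1460242_at the log2 signals were 7.09 and 9.13 in GFP Naïve, 8.84 and 4.88 in Cre Naïve, 8.88 and 8.99 in GFP Recurred and 3.57 and 3.15 in Cre Recurred cells. Both Cre Recurred arrays were below the other 6, and the replicate 2 array of Cre Naïve was the next lowest. On 1443906_at the signals were 6.74 and 8.34, 8.40 and 4.35, 8.35 and 8.18, and 2.50 and 2.60 in the same order. The third probe set, 1418762_at, read 7.13 and 9.14, 8.58 and 5.07, 8.68 and 8.67, and 4.14 and 4.36. The 3 probe sets followed each other with Pearson r between 0.991 and 0.996 over the 8 arrays. The Cd55b probe set 1419727_at stayed between 2.34 and 2.63 on all arrays. The probe set shared by Cd55b and Cd55 (1427632_x_at) was nearly as dim, at 2.42 to 2.74, so the order of its arrays was not compared with that of Cd55.

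By mean level, Cd55 stood highest in GFP Recurred cells, followed by GFP Naïve, Cre Naïve and Cre Recurred cells, on each of its 3 probe sets. In Cre Recurred against GFP Recurred cells the log2 differences were -4.43 ± 1.08 (SE), -5.72 ± 1.16 and -5.58 ± 1.20 on 1418762_at, 1443906_at and 1460242_at. The first is 21.5-fold lower. No fold is given for the other probe sets, whose Cre Recurred signals of 2.50 to 3.57 were close to the level of the dim Cd55b probe set. In a linear model across all probe sets (limma, Benjamini-Hochberg adjusted) these had adjusted p = 0.108, 0.0788 and 0.0858, which is within the study's thresholds of 1.5-fold and an adjusted p under 0.25 and outside a stricter adjusted p of 0.05. Against GFP Naïve cells Cre Recurred cells were lower by the same thresholds, with log2 differences of -3.89, -4.99 and -4.75 and limma adjusted p of 0.24, 0.193 and 0.214. Against Cre Naïve cells the log2 differences were -2.58, -3.83 and -3.50, and none passed (limma adjusted p = 0.414, 0.328 and 0.357). No neighbouring pair in the order of mean levels passed. The SD within Cre Naïve cells was 2.48 on 1418762_at, 2.86 on 1443906_at and 2.80 on 1460242_at (n = 2).

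The 2 Cre Naïve arrays differed widely in Cd55. Replicate 2 was lower than replicate 1 by 3.51, 4.05 and 3.96 on the log2 scale on 1418762_at, 1443906_at and 1460242_at, gaps that at most 39 of the 45037 probe sets reached in that population. Without Cre Naïve replicate 2 the log2 difference of Cre Recurred from Cre Naïve cells was -4.33, -5.85 and -5.48, and each of the 3 then met the study's thresholds (limma adjusted p = 0.0835, 0.0193 and 0.0497). Without Cre Naïve replicate 1 the log2 difference was -0.83, -1.80 and -1.52, and none passed. In the GFP Naïve cells replicate 1 was below replicate 2 by 1.60 to 2.04.

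Serping1, read by 1 probe set (1416625_at), was among the brightest genes, above 95.0% of all probe sets by mean signal. Its log2 signals were 11.65 and 11.45 in GFP Naïve, 12.19 and 10.22 in Cre Naïve, 11.76 and 12.07 in GFP Recurred and 7.90 and 9.28 in Cre Recurred cells. The Cre Recurred arrays were the 2 lowest and did not overlap with any other population, and Cre Naïve replicate 2 was again the next lowest. Over all probe sets, that array was closer to Cre Recurred replicate 2 (r = 0.9917) than to Cre Naïve replicate 1 (r = 0.9855). With Cre Recurred replicate 1 it had r = 0.9825. Its likeness to a recurred array was thus not limited to Cd55 and Serping1. The log2 difference of Cre Recurred from GFP Recurred cells was -3.33 ± 0.66 (SE), or 10.0-fold lower (limma adjusted p = 0.0745), and that from GFP Naïve cells was -2.96, or 7.79-fold lower (limma adjusted p = 0.183). Both passed the study's thresholds. The log2 difference from Cre Naïve cells, -2.61 ± 0.66, did not (limma adjusted p = 0.287). It was -3.60 without Cre Naïve replicate 2 (limma adjusted p = 0.0564), and -1.63 without Cre Naïve replicate 1 and -1.92 without Cre Recurred replicate 1, neither of which passed (limma adjusted p = 0.59 and 0.907). The order of mean levels was GFP Recurred, GFP Naïve, Cre Naïve and Cre Recurred, as for Cd55, and no neighbouring pair in it passed. Across the 8 arrays Serping1 and the brightest Cd55 probe set (1418762_at) had a Pearson r of 0.91, as a description of arrays that share 4 populations.

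Each inhibitor was set against the array medians. On the Cre Recurred arrays Serping1 was at 7.90 and 9.28, which is above them. Cd55 was at 2.50 to 4.36 over its probe sets on the same arrays, which is below them. Levels of different probe sets were not compared with each other. Between the 2 Cre Recurred arrays Serping1 differed by 1.38, a gap that 0.797% of all probe sets reached, and the 3 Cd55 probe sets by 0.09 to 0.41 in size.

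Masp1, the gene of a lectin pathway protease and of its splice forms, was read by 5 probe sets, which differed in brightness. The brightest, 1425985_s_at, had log2 signals of 8.96 and 9.28 in GFP Naïve, 8.70 and 8.71 in Cre Naïve, 8.80 and 8.96 in GFP Recurred and 8.08 and 7.98 in Cre Recurred cells. Both Cre Recurred arrays were the lowest, with little spread within any population. The log2 difference of Cre Recurred cells was -0.85 ± 0.15 (SE) from GFP Recurred (limma adjusted p = 0.0593), -1.08 ± 0.15 from GFP Naïve (limma adjusted p = 0.063) and -0.67 ± 0.15 from Cre Naïve cells (limma adjusted p = 0.235). It was the only 1 of the 11 probe sets to pass the study's thresholds between Cre Recurred and Cre Naïve cells, and it lay close to the limit there. The probe sets 1438602_s_at and 1455346_at were lower in Cre Recurred than in GFP Recurred cells too, with log2 differences of -0.72 (limma adjusted p = 0.0962) and -0.63 (limma adjusted p = 0.202). The probe set 1438603_x_at differed in the same direction by -0.47 and stayed under 1.5-fold. The dim probe set 1419677_at lay between 3.65 and 4.01 on all arrays and differed by -0.10. The suffixes s and x mark probes shared between transcripts, and probe sets of different splice forms were not distinguished here.

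**Figure D2:**
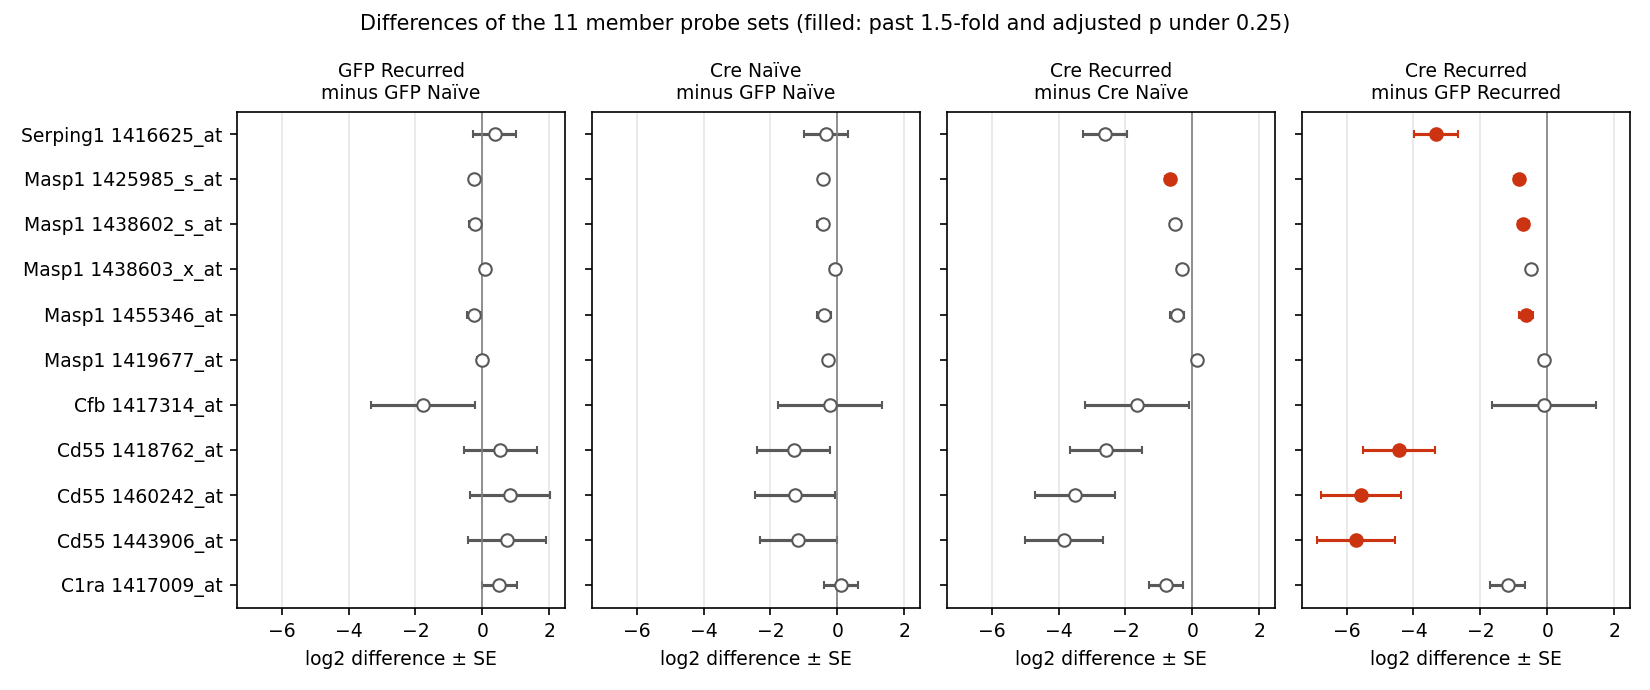
Log2 differences (horizontal axis, ± SE of the limma fit) of the 11 probe sets in 4 comparisons, filled where both of the study's thresholds were passed. Between Cre Recurred and GFP Recurred cells 7 points are filled, all lower, and between Cre Recurred and Cre Naïve cells 1 is filled (Masp1 1425985_s_at, -0.67).

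C1ra encodes the C1r protease and stands on chromosome 6 directly before C1s1, which encodes its substrate and partner C1s. Their promoters (RefSeq, GRCm38.p6) are shown because the 2 genes are neighbours with similar profiles (Pearson r 0.943 over the 8 arrays). This likeness is not particular to the pair, since C1ra was closer to genes outside complement, such as Itga1 (0.995). The capitals mark matches to the C/EBP-like letters TTGCNNAA on either strand, which 10.8% of all promoters of this length held. C1ra is read on the plus strand and C1s1 on the minus strand.
C1ra, chr6:124512371-124512670: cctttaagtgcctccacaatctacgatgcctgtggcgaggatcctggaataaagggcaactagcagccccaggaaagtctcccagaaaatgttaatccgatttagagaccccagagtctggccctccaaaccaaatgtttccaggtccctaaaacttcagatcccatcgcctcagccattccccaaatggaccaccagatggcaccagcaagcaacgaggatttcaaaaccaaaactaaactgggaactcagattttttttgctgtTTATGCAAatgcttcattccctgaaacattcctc
C1s1, chr6:124542310-124542609: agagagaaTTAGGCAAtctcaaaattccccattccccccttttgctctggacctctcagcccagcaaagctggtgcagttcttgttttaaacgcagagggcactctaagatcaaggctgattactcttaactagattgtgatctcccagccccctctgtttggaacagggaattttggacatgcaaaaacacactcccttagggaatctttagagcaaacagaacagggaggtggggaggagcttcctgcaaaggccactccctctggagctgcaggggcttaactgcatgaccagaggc
The match started 16 bases after the annotated start in C1ra and 242 bases before it in C1s1. The letters TTCNNNGAA, which STAT factors can bind, were matched once in C1ra and not in C1s1 (8.3% of all promoters), and the windows held 5 and 1 CpG.

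The C1ra probe set 1417009_at read 10.89 and 10.25 in GFP Naïve, 11.04 and 10.32 in Cre Naïve, 10.84 and 11.33 in GFP Recurred and 9.11 and 10.69 in Cre Recurred cells. Replicate 1 of Cre Recurred cells was the lowest array, and replicate 2 lay within the range of the other populations. The log2 difference of Cre Recurred from GFP Recurred cells was -1.18 ± 0.52 (SE) and did not pass the study's thresholds (limma adjusted p = 0.314). Without Cre Recurred replicate 1 it was -0.40, and without replicate 2 it was -1.97 (limma adjusted p = 0.0914). The probe set shared by C1rb and C1ra (1456437_x_at) read 7.17 on Cre Recurred replicate 1 and 8.21 to 9.34 on the other arrays. C1s1 (1424041_s_at) read 10.42 on that array and 10.87 to 11.96 on the others, and had a Pearson r of 0.943 with C1ra over the 8 arrays. The order of mean C1ra levels was GFP Recurred, Cre Naïve, GFP Naïve and Cre Recurred, and none of the 5 pairs compared passed.

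The array on which C1ra was low also had low acute phase transcripts. The list used here held 16 measured genes, both acute phase genes and inducers of complement genes. Of these, 6 were lower in Cre Recurred than in GFP Recurred cells at the study's thresholds, beside 6.55% of all genes. None was higher. Those lower were the signalling and transcription regulators Socs3, Cebpd, Stat3, Nfkbiz and Cebpb, and the acute phase gene Orm1, which was dim (3.30 to 5.08). The median log2 difference of the list was -0.74, beside 0.04 over all genes. The summed linear signal of the list was 14577 on Cre Recurred replicate 1 and 34655 to 51498 on the other 7 arrays. Saa3, an acute phase protein, read 9.78 on that array and 13.25 on Cre Recurred replicate 2, and Lcn2, a siderophore-binding protein induced in inflammation, 8.63 and 11.56. The acute phase genes Hp and Cp read 5.49 and 8.60 on that array and 10.79 and 11.21 on Cre Recurred replicate 2. None of Saa3, Lcn2, Hp and Cp passed between the recurred populations. The part of this array difference in the C1ra values was not tested.

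Cfb gave a pattern of its own. Its probe set 1417314_at read 9.02 and 4.13 in GFP Naïve, 7.98 and 4.75 in Cre Naïve, 4.90 and 4.71 in GFP Recurred and 4.68 and 4.74 in Cre Recurred cells. The replicate 1 arrays of the untreated cells of both genotypes were high and the other 6 were below the array medians. Replicate 2 was below replicate 1 by 4.89 in GFP Naïve cells, 29.6-fold, a gap that 5 of the 45037 probe sets reached, and by 3.23 in Cre Naïve cells, 9.38-fold, which 63 reached. The lower of the 2 high arrays stood 3.08 above the highest of the other 6. By this margin Cfb was rank 2 of all probe sets, after Itih5 (3.16), and 61 probe sets had a margin of 1 or more.

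No comparison between populations passed for Cfb, whose SD was 3.45 in GFP Naïve and 2.28 in Cre Naïve cells and at most 0.13 in the recurred cells (n = 2 each). GFP Recurred minus GFP Naïve was -1.77 ± 1.56 (SE) on the log2 scale with all arrays. It was -4.21 without GFP Naïve replicate 2 and 0.67 without GFP Naïve replicate 1, so 1 array set both size and direction. GFP Naïve replicate 1 and Cre Naïve replicate 1 were also the most alike pair of arrays of different genotype, with r = 0.9941 over all probe sets. Between the GFP Naïve arrays r was 0.9865, and between the Cre Naïve arrays 0.9855. Cre Naïve replicate 1 was almost as close to GFP Recurred replicate 1 (r = 0.9938), on which Cfb read 4.90.

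C2 and C4, the other complement genes of the same stretch of chromosome 17, had high signals on the same 2 arrays. C2 (1457664_x_at) read 6.93 and 6.26 on the replicate 1 arrays of GFP Naïve and Cre Naïve cells and 3.60 to 4.20 on the other 6. A further C2 probe set (1416051_at) read 7.04 and 6.46 against 4.55 to 5.04. The brightest C2 probe set, 1441912_x_at, read 6.80 and 6.12 on these arrays and 5.51 to 6.13 on the others, so it did not separate them. The probe set shared by C4a and C4b (1418021_at) read 9.09 and 8.54 on these arrays, 7.74 and 8.20 in GFP Recurred cells and 6.08 to 6.80 on the remaining 4. Because C4a and C4b are near copies, this signal cannot be assigned to C4b.

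Genes with no role in complement lie between and around them. In the order of the GRCm38.p6 annotation, Cyp21a1, Stk19, Dxo, Skiv2l and Nelfe lie between C4b and Cfb, and Zbtb12, Ehmt2 and Slc44a4 lie beyond C2. In these 8 genes replicate 1 minus replicate 2 ranged from -0.25 to 0.14 in GFP Naïve cells and from -0.19 to 0.14 in Cre Naïve cells. On the other side of C4b, Tnxb gave -0.68 and 0.94, Atf6b 0.03 and -0.19, and Fkbpl -0.11 and 0.34 in GFP Naïve and Cre Naïve cells. None of these 11 genes was higher on both replicate 1 arrays than on the other 6.

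Some genes known from macrophages were also highest on these arrays, and others were not. Lyz2, the gene of lysozyme, read 6.92 and 5.52 on the replicate 1 arrays of GFP Naïve and Cre Naïve cells and 4.45 to 5.18 on the other 6. Csf1r, the CSF-1 receptor, read 8.19 and 7.84 against 6.37 to 7.28 on its brightest probe set. Its probe set 1419873_s_at separated these arrays too (7.07 and 6.62 against 6.03 to 6.44). The third, 1423593_a_at, did not (7.08 and 6.94 against 6.73 to 7.04). Neither did Cd14, the brightest of 11 listed macrophage genes, at 9.43 and 9.94 against 8.88 to 9.84. Wfdc17, a gene of activated macrophages outside that list, read 9.60 and 7.70 against 4.87 to 6.37. It was picked for its likeness to Cfb (Pearson r 0.951), so its match with the Cfb arrays follows from that choice. Itgb2, a leukocyte integrin, was highest on GFP Naïve replicate 1 at 6.35 and read 5.25 on Cre Naïve replicate 1, within the 3.87 to 5.33 of the others. The defining genes Ptprc, Adgre1, Cd68 and Tyrobp stayed below the array medians there as elsewhere. The summed signal of the 11 listed macrophage genes, in which Cd14 weighs most, was 1222 and 1368 on these arrays and 737 to 1214 on the other 6. The summed signal of 9 adipocyte genes was 4220 and 4430 on these arrays and 1169 to 3208 on the other 6. The part of macrophage or adipocyte transcripts in the Cfb, C2 and C4 values was not tested.

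**Figure D3:**
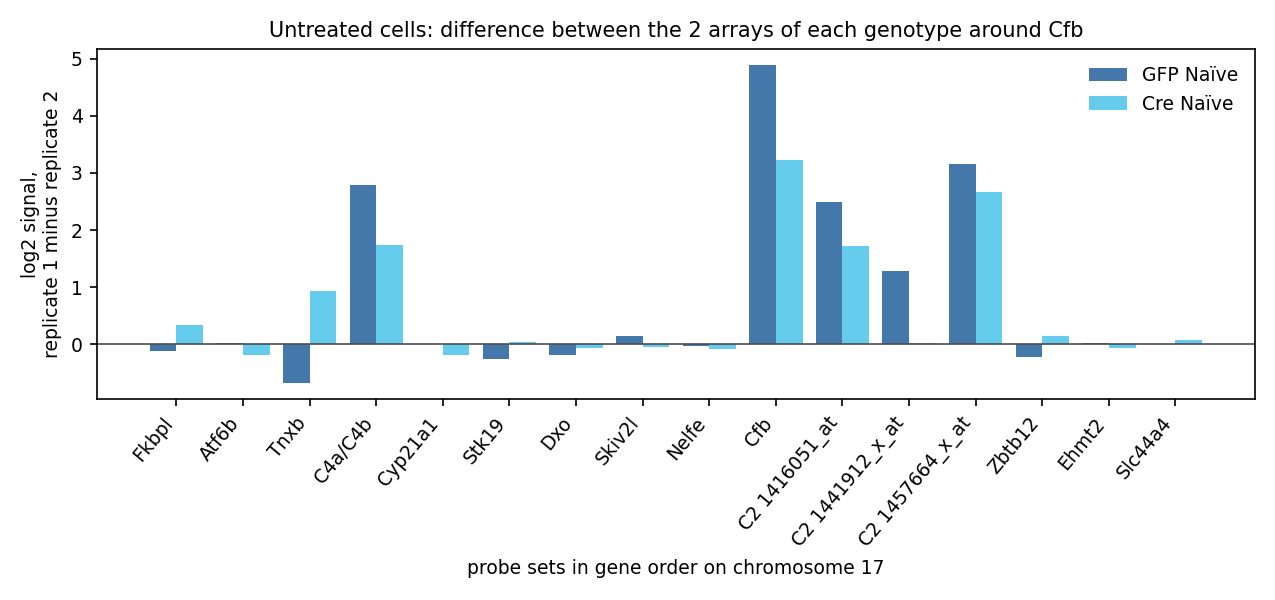
Replicate 1 minus replicate 2 (vertical axis, log2 signal) in GFP Naïve and Cre Naïve cells for probe sets of neighbouring genes in chromosomal order, each bar being the difference of 2 arrays and thus without an error bar. Cfb (4.89 and 3.23), the C4a/C4b probe set and C2 1416051_at and 1457664_x_at stand above the neighbouring genes without a role in complement.

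Counted over the 11 probe sets, those that passed read Cd55, Serping1 or Masp1 and were lower in Cre Recurred cells. The members were chosen with earlier results of these data known, so the shares given beside the counts are no test of the set. Between Cre Recurred and GFP Recurred cells 7 of 11 were lower at the study's thresholds, 3 of Cd55, 3 of Masp1 and Serping1, beside 4.78% of all probe sets that were lower by the same thresholds. Between Cre Recurred and GFP Naïve cells 7 of 11 were lower beside 2.07% of all probe sets, and both counts rest on the same Cre Recurred arrays. Between Cre Recurred and Cre Naïve cells 1 of 11 was lower beside 0.775%. None was higher in any of these. The shares cover dim probe sets too, whereas 10 of the 11 lay above the median probe set. In a fit of the 22518 probe sets above it, 8 of 10 member probe sets passed between the recurred populations. In either direction, 3699 of the 22518 did. In the fit of all 8 arrays none of the 11 passed the stricter threshold, which 0.722%, 0.109% and 0.0533% of all probe sets passed in these 3 comparisons. With the compared arrays only, 5 of the 11 passed it between the recurred populations and none against GFP Naïve or Cre Naïve cells.

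The median log2 difference of the 11 probe sets was -0.85, -1.08 and -0.78 in these comparisons, and 11, 11 and 10 of the 11 were negative, beside 41.8%, 41.0% and 41.1% of all probe sets. The 11 are not 11 independent measurements, since 8 of them read Cd55 or Masp1. By gene, 3 of 5 were lower in Cre Recurred than in GFP Recurred cells, beside 6.55% of 18193 genes, each read by its brightest probe set. These counts moved when 1 array was left out. The first became 0 without either GFP Recurred array or Cre Recurred replicate 1. The second became 4 without GFP Naïve replicate 1, 3 without Cre Recurred replicate 2, 1 without GFP Naïve replicate 2 or either GFP Recurred array, and 0 without Cre Recurred replicate 1. The count against Cre Naïve cells became 5 when replicate 2 of Cre Naïve cells was left out, 3 when replicate 2 of Cre Recurred cells was, and 0 for replicate 1 of either Cre population or either GFP Recurred array. The direction stayed negative for each of the 7 probe sets of the first count under all of these.

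Loss of RB alone and recurrence with RB gave no called difference. Between Cre Naïve and GFP Naïve cells 0 of 11 passed the study's thresholds, and 0% of all probe sets were lower there or passed the stricter threshold. At an unadjusted p under 0.05 in limma 2 of 11 passed, beside 2.57% of all probe sets. Both read Masp1 (1425985_s_at and 1438602_s_at) and followed each other with a Pearson r of 0.989, so they stand for 1 gene. Between GFP Recurred and GFP Naïve cells 0 of 11 passed, where 0.00444% of all probe sets were lower and 0% met the stricter threshold, and 0 of 11 passed an unadjusted p under 0.05 in limma, beside 5.52%. For the interaction between RB and recurrence 0 of 11 passed, beside 0.244% lower and 0% at the stricter threshold, and 3 of 11 had an unadjusted p under 0.05 in limma, beside 10.3%. With 1 array left out, the naïve count became 1 without Cre Naïve replicate 1, and the interaction count 4 without Cre Naïve replicate 2 and 2 without Cre Recurred replicate 2. The interaction for Serping1 was -2.98 ± 0.93 (SE) on the log2 scale (limma adjusted p = 0.387). A missed threshold does not show that the populations were alike, and with 2 arrays on each side the smallest two-sided p of an exact permutation is 0.333.

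Other complement genes were placed beside these from a list of 56 in 7 roles, of which 45 had a probe set and 14 a mean signal above the median probe set. By the brightest probe set of each gene, 4 were lower in Cre Recurred than in GFP Recurred cells (Masp1, Serping1, Cd55 and Clu) and 1 was higher (Cd93), beside 6.55% of all genes lower and 4.81% higher. The median log2 difference of the 45 genes was -0.01, beside 0.04 over all genes, and most of the 45 were dim on these arrays. Clu, which encodes clusterin, an inhibitor of the terminal complex, read 10.91 and 9.12, 11.31 and 8.04, 10.67 and 10.95, and 6.51 and 6.98 on the GFP Naïve, the Cre Naïve, the GFP Recurred and the Cre Recurred arrays (1454849_x_at). Its log2 difference in Cre Recurred from GFP Recurred cells was -4.06 ± 1.01 (SE, limma adjusted p = 0.111). Clu was the third inhibitor that was lowest on both Cre Recurred arrays with Cre Naïve replicate 2 next. The same order held for Dpt and Bnc1, which are not complement genes.

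By role, 3 of the 6 measured classical pathway genes had a mean above the median probe set (C1s1, C1ra and C2). The 3 genes of the C1q subunits read between 2.49 and 4.34 on all arrays, below every array median. Of 6 measured terminal pathway genes, none had a mean above the median probe set. In the lectin pathway 3 of 9 did (Colec12, Masp1 and Fcnb), in the alternative pathway Cfp and Cfb, and among soluble regulators Serping1 and Clu of 7. Among 7 membrane regulators Cr1l, which encodes the rodent regulator Crry, was the brightest at 8.69 to 9.26, and it did not pass in Cre Recurred against GFP Recurred cells (0.48 ± 0.13, SE, limma adjusted p = 0.133, 1.40-fold). Among 8 receptors only Cd93, a surface protein of endothelial and myeloid cells, was above the median probe set, at 7.69 and 6.62 in Cre Recurred and 5.82 and 5.78 in GFP Recurred cells (log2 difference 1.36 ± 0.32, SE, limma adjusted p = 0.101). C3ar1, the C3a receptor, read 6.62 on Cre Recurred replicate 1 and at most 4.61 on the other arrays.

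**Figure D4:**
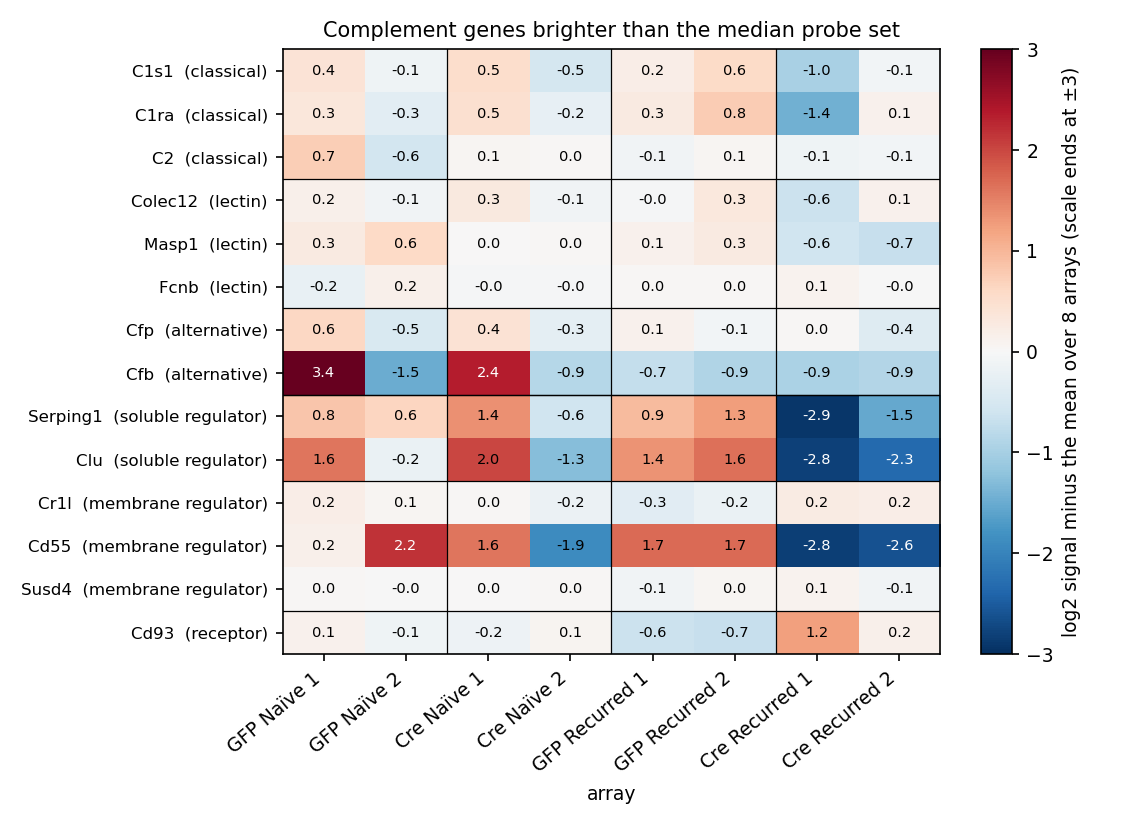
Log2 signal minus the mean over the 8 arrays (colour, scale ending at ±3, value printed in each cell) for the 14 complement genes with a mean above the median probe set, by array and grouped by role. Serping1, Clu and Cd55 are low on both Cre Recurred arrays and on Cre Naïve replicate 2, and Cfb is high on the replicate 1 arrays of both naïve populations.

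The cells were checked against markers of the types that peritoneal fascia could hold. All 15 fibroblast genes, led by Col1a2, Vim and S100a4, had means above the median probe set, and their summed linear signal was 43606 on Cre Recurred replicate 1, 71944 on replicate 2 and 71281 to 95740 on the other 6 arrays. In Cre Recurred against GFP Recurred cells 5 of the 15 met the study's thresholds as lower (Dpt, Fap, Fbln1, Dcn and Prrx1) and 1 as higher (Thy1), beside 6.55% and 4.81% of all genes. The median log2 difference was -0.95, so part of the fibroblast list moved with Cd55 and Serping1. Dpt, a matrix protein of dermis and fascia, read 5.31 and 7.26 in Cre Recurred and 10.31 and 10.53 in GFP Recurred cells. Of 11 macrophage genes, 8 were below the array median on all arrays, among them the defining genes Ptprc, Adgre1, Cd68 and Tyrobp, which stayed between 2.95 and 4.68. Cd14 (8.88 to 9.94) and Csf1r (6.37 to 8.19) were brighter. The summed signal of the list was 976 to 1017 in Cre Recurred, 1175 to 1214 in GFP Recurred, 1027 to 1368 in Cre Naïve and 737 to 1222 in GFP Naïve cells, and none of the 11 passed between the recurred populations.

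Of 12 mesothelial genes, 7 were below the array median on all arrays. In Cre Recurred against GFP Recurred cells 3 were higher (Krt19, Msln and Krt7) and 1 was lower (Bnc1), beside 4.81% and 6.55% of all genes. Of the 3, Krt7 was dim and stayed below the array medians on all arrays (3.65 to 4.78). The summed signal of the list was 545 to 802 against 552 to 572, with 364 to 510 in Cre Naïve and 573 to 722 in GFP Naïve cells. Msln, the gene of mesothelin, read 8.85 and 7.82 against 6.87 and 6.38, whereas Bnc1, a transcription factor of mesothelium and keratinocytes, read 2.76 and 2.96 against 7.93 and 7.89 and was at 3.94 on Cre Naïve replicate 2. Of 9 adipocyte genes 1 (Pparg) was lower, beside 6.55% of all genes. The defining gene Adipoq stayed at 2.50 to 2.78, and Lpl was at 9.37 to 11.74. The summed signal was 2170 to 3208 in Cre Recurred, 2506 to 2838 in GFP Recurred, 1335 to 4430 in Cre Naïve and 1169 to 4220 in GFP Naïve cells. In both naïve populations its higher value was on replicate 1, where Cfb was high. The part of any of these lists in the Cd55 and Serping1 values was not tested.

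The genes most like each member were sought among 1358 genes above the median probe set with an SD of at least 0.5, over 8 arrays of 4 populations, by Pearson r of the brightest probe sets. For Cd55 they were Spry1 (0.990), Csf2ra (0.989) and Cnrip1 (0.988), and for Serping1 Syce2 (0.996), Nfia (0.992) and Il6st (0.991). For C1ra they were Itga1 (0.995), Pcdhb21 (0.984) and Dram1 (0.984), and for Masp1 3830406C13Rik (0.969), Adamtsl3 (0.968) and Rgs4 (0.966). For Cfb they were Adcyap1r1 (0.987), Wfdc17 (0.951) and Parm1 (0.948). No gene was shared between these sets of 3, and with 8 arrays such values describe the arrays only.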

How the data were processed

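RNA of 4 populations was hybridized to Affymetrix mouse genome arrays, 2 per population. The authors deposited log2 signals made with RMA, which corrects background, normalizes quantiles across arrays and summarises probes, and its version is not given in the sources used here. Probe-level files were not used here. The 64 control probe sets were left out of 45101. The array annotation gave 34945 probe sets 1 symbol, 932 several and 9160 none. Only the first were named, except 3 shared with a member. Promoters came from RefSeq (GRCm38.p6), where 4 of the 8 genes (C3, Cfd, C1ra and Cd55) had 1, and were aligned with Biopython 1.88.

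A linear model (limma 3.58.1, R 4.3.3) held 1 mean per population (4 residual and 3.07 prior degrees of freedom), and p values were adjusted (Benjamini-Hochberg) over 45037 probe sets. The study called changes with SAM, which was not run here. Thresholds were the study's (1.5-fold, FDR under 25%) and a stricter adjusted p under 0.05. The naming rule took all probe sets of the members, the complement genes past the study's thresholds, and the brightest 3 genes of each role or marker list, of which those without a bearing on the members' results are left unnamed. Marker genes past the thresholds, the defining macrophage and adipocyte genes, Dpt, Lcn2, C3ar1, Itih5 and the genes around Cfb were named after their values were seen. The members and lists were chosen with earlier results of these data known. P values measure only the spread between 2 arrays per population, the number of which limits the precision. The fit was tested on simulated data. Alternatives were a trended and robust prior, the compared arrays only, a replicate block, median centring, cyclic loess, fits without dim or shared-probe sets, means over the probe sets of a gene, and leaving out each array. Figures were drawn with matplotlib 3.10.9 in Python 3.11.15.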

Additional observations from a re-analysis of the deposited data

Results flagged for a closer look

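The arrays of Serping1 separated in opposite directions with recurrence in the 2 genotypes. Both GFP Recurred arrays (11.76 and 12.07) were above both GFP Naïve arrays (11.65 and 11.45), and both Cre Recurred arrays (7.90 and 9.28) were below both Cre Naïve arrays (12.19 and 10.22). The flag asked for no margin. In the GFP cells the nearest arrays, at 11.76 and 11.65, lay closer together than the replicates of GFP Naïve or GFP Recurred cells, which differed by 0.21 and 0.31. The test of the difference, the interaction in limma, gave -2.98 on the log2 scale and did not pass (adjusted p = 0.387), nor did the difference pass within either genotype. Of the 11 probe sets of the members, 1 separated in this way. The share of all probe sets that do so was not counted, so this number is not read as a result about the members.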

How the results depend on the processing

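The count of member probe sets past the study's thresholds changed with several settings. It was 1 between Cre Recurred and Cre Naïve cells and became 0 with a trended and robust prior, with the compared arrays only, with a replicate block and without shared-probe suffixes, and ran from 0 to 5 when 1 array was left out (5 when Cre Naïve replicate 2 was out, 3 when Cre Recurred replicate 2 was). Between Cre Recurred and GFP Recurred cells it was 7, or 2 of the 5 genes with means over the probe sets of a gene, and 0 to 7 with 1 array left out. Between Cre Recurred and GFP Naïve cells it was 7, or 4 with a trended and robust prior and 3 genes with means over probe sets, and 0 to 7 with 1 array left out. For Cre Naïve against GFP Naïve cells the count of 0 became 0 to 1, and for the interaction 0 to 4, with 1 array left out. With the array of a population left out, the lone array is assumed to vary like the others. C1ra in Cre Recurred against Cre Naïve cells was -0.78 and turned to 0.0034 without Cre Recurred replicate 1, the end of a range from -1.57 to 0.0034. Median centring, cyclic loess and the fit without dim probe sets left each count within 1.5 times. Whether the replicate numbers pair the samples is not settled: the deviations of same-numbered arrays correlated between -0.255 and 0.307, above 0.1 for 3 of 6 pairs of populations, and the replicate block changed no other count by over 1.5 times. The fit of compared arrays only was not made for the interaction, which needs all arrays. The cause of these changes was not tested.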
